A study of Mus musculus with 2 samples.

Results

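Spermatogonia, the mitotic germ cells at the base of the seminiferous tubule, were selected on measured values in 2 single-cell RNA libraries of whole mouse testis, namely the unique molecular identifiers (UMIs, each a counted RNA molecule) of marker genes. One library came from Prm2-/- mice (knockout, KO) and the other from Prm2 +/- mice (heterozygous, het), so both groups carry a Prm2 mutation and no wild-type testis was included. Prm2 encodes protamine 2, which packs sperm DNA long after the spermatogonial stage. Strain, age and number of mice per library are not given in the sources used here. A barcode was a member when at most 20% of its UMIs were mitochondrial and 4 further conditions held. The 9 genes of set A (Zbtb16, Sall4, Gfra1, Kit, Uchl1, Crabp1, Sohlh1, Rhox13 and Dmrt1) together had at least 3 UMIs. They made up at least 0.08% of the barcode's UMIs. They exceeded the 5 genes of set B (Prdm9, Dmc1, Meiob, Meioc and Stra8), which mark cells entering meiosis. The sum of the Sertoli cell genes Cst9, Cst12, Defb36 and Defb19 stayed below 3. The rule found 506 members among 38095 barcodes, 360 in the KO library and 146 in the het library.

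Spermatogonia include a small pool of stem and progenitor cells and a larger pool of differentiating cells that divide several times before meiosis. In the mouse, the stem end depends on GDNF, a factor from Sertoli cells that is sensed through GFRA1 and RET, while differentiating cells carry the receptor KIT and respond to retinoic acid. Retinoic acid also induces STRA8 at the step into meiosis. SOHLH1 is a transcription factor of the basic helix-loop-helix class that is needed for the differentiating step, DMRT1 holds back meiotic entry, and ZBTB16 and SALL4 are transcription factors of the progenitors.

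The promoter of Sohlh1 is shown because factors of this class bind variants of the E-box, of which CACGTG is the palindromic form that reads the same on both strands, and because Sohlh1 was the 1 gene with a match among the 6 of 9 set A genes found in the promoter table. The sequence is from RefSeq (GRCm38.p6, chr2:25847249-25847498, minus strand) and holds the 250 bases before the start of the gene, 5′ to 3′, with each CACGTG in capitals.
Sohlh1: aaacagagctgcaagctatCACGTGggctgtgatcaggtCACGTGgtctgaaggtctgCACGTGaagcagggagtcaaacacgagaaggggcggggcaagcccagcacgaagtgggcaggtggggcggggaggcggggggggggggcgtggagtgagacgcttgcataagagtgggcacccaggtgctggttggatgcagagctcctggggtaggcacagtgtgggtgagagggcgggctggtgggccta
The 3 matches begin at bases 20, 40 and 59 of this stretch, which also holds 11 CpG dinucleotides. Of 27025 promoters of the same length in the table, 1634 (6.05%) held at least 1 match and 18 (0.0666%) held 3 or more. A match describes the letters and is not a measured binding site. Zbtb16, Sall4 and Dmrt1 were not in the table.

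The libraries differed in depth and content before any member was chosen. The KO library held 123588822 UMIs in 22885 barcodes and the het library 71364845 UMIs in 15210 barcodes, with medians of 3787 and 1900.5 UMIs among the 22503 and 15038 barcodes that met the mitochondrial limit. Scrublet, which scores barcodes for resemblance to simulated mixtures of 2 cells, marked 15.7% of the KO and 3.07% of the het barcodes. The libraries shared 88 barcode sequences, and none (0) of the members carried one. Spermatids dominate a whole testis and their RNA was found in every barcode class of both libraries. With 1 library per genotype there is no replicate and no test of any kind. Intervals are 95% intervals for counting error only, and a 2-fold difference is a rule of size.

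Members took a larger share of the KO library. They made up 1.60% of kept barcodes in the KO library (360 of 22503, exact Clopper-Pearson interval 1.44 to 1.77%) and 0.971% in the het library (146 of 15038, 0.820 to 1.14%), a ratio of 1.65 (1.36 to 2.01). The next germ cell stage stood higher in the KO library too. Barcodes led by set B made up 2.10% of the KO library (473 barcodes, 1.92 to 2.30%) and 1.62% of the het library (243 barcodes, 1.42 to 1.83%). There were 76.1 members per 100 such barcodes in the KO library and 60.1 in the het library. The labels' protocols give 15000 cells loaded per library, while 22885 barcodes were deposited for the KO and 15210 for the het library. Shares of barcodes also move with how many other barcodes were captured and called, and that part in the ratio was not tested. With set A of at least 5 UMIs the ratio was 1.34, and without the barcodes marked by Scrublet it was 1.74.

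**Figure D1:**
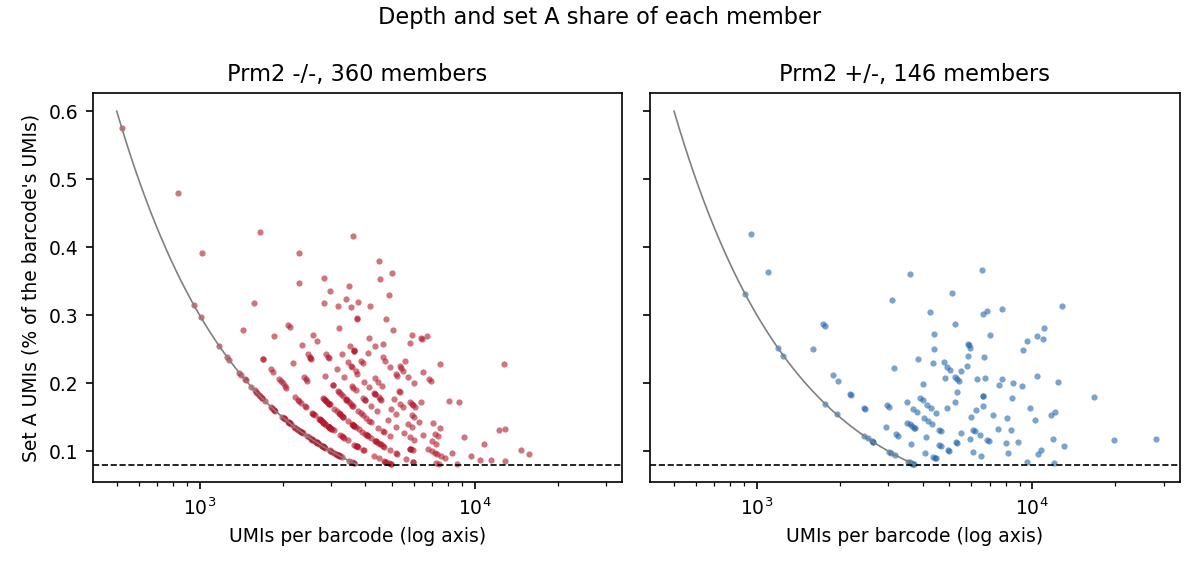
Set A UMIs as a percentage of each member's UMIs (vertical axis) against its total UMIs (horizontal log axis), with the KO library on the left and the het library on the right; each point is 1 member, the dashed line is the 0.08% limit and the grey curve is the limit of 3 UMIs. KO members crowd along the curve, with 75 of 360 at exactly 3 UMIs, against 18 of 146 het members.

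Members were shallower in the KO library although the library as a whole was deeper. The KO members had a median of 3514 UMIs (lowest 522, highest 15722) and 2174.5 genes, and the het members 4914.5 UMIs (908 to 28055) and 2709 genes. Set A gave a median of 5 UMIs per KO member and 8 per het member, or 0.156% and 0.163% of UMIs. Just inside the limit, 75 KO and 18 het members had exactly 3 set A UMIs. Just outside it, 94 KO and 29 het barcodes had exactly 2 and met the other conditions. At least 3 set A genes were present in 285 KO and 123 het members, while 6 KO and 8 het members qualified on 1 gene alone. The mitochondrial share had a median of 4.56% in KO members and 4.40% in het members, against 1.27% and 0.811% over all kept barcodes of these libraries. In barcodes led by set B the median was 4.28% in the KO and 4.32% in the het library, near that of members.

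The set A genes, which chose the members, were close to each other in level between the libraries apart from Sall4. Since the rule used these genes, their levels describe the selection and are no separate result. Levels are CPM, the UMIs of a gene summed over members and divided by all their UMIs, times 1000000. Uchl1, a deubiquitinating enzyme of spermatogonia and neurons, had 564 CPM in KO members and 640 CPM in het members. It gave the largest part of the set A UMIs, 34.7% in KO and 36.9% in het members, and 149 KO and 48 het members would not qualify without it. Dmrt1 had 306 CPM in KO and 302 CPM in het members. Crabp1, a retinoic acid carrier, had 250 CPM in KO and 296 CPM in het members. Rhox13, an X-linked homeobox gene, had 114 and 146 CPM in KO and het members and still stood at 81.6 and 67.9 CPM in barcodes led by set B, the highest set A level there. Sohlh1, whose promoter is given above, had 111 CPM in KO and 102 CPM in het members, and 8.91 and 9.84 CPM in barcodes led by set B.

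The progenitor and differentiation receptors were sparse in both libraries. Kit had 100.05 CPM in KO and 84.0 CPM in het members, Zbtb16 97.9 and 109 CPM, and Gfra1 25.9 and 30.8 CPM. Gfra1 was also read in the rest of the testis, at 9.77 CPM in the KO and 5.99 CPM in the het library. Sall4 was at 56.7 CPM in KO members (81 UMIs in 59 of 360) and 26.0 CPM in het members (22 UMIs in 21 of 146), a log2 ratio of 1.12 (0.43 to 1.87). It was the 1 set A gene past 2-fold. Sall4 also helped to choose the members: 13 KO members and 1 het member would not qualify without it. Its ratio is therefore not independent of the rule. Over all other barcodes Sall4 was at 0.329 CPM in the KO and 0.0712 CPM in the het library.

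**Figure D2:**
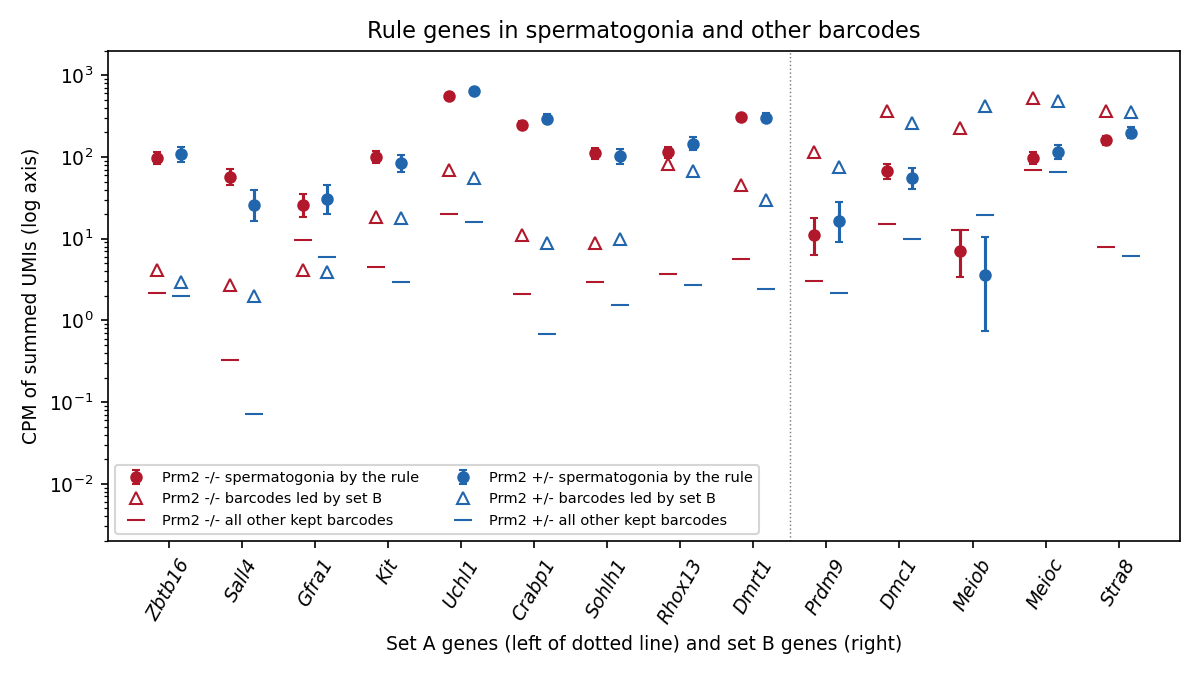
CPM of summed UMIs (log axis) of the 9 set A and 5 set B genes, KO (red) and het (blue), in members (filled circles, bars are exact Poisson 95% intervals), in barcodes led by set B (open triangles) and in all other kept barcodes, those led by set B included (dashes). Every set A gene is highest in members, and Stra8, at 160 CPM in KO and 198 CPM in het members, is the set B gene nearest to the levels of the barcodes led by set B.

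The set B genes that the rule kept below set A were not absent from members. Stra8, the retinoic acid target that marks meiotic entry and also appears in differentiating spermatogonia of the mouse, had 160 CPM in KO members and 198 CPM in het members, against 363 and 354 CPM in barcodes led by set B. It was read in 100 of 360 KO members (27.8%) and 54 of 146 het members (37.0%). Meioc, which keeps meiotic transcripts stable, had 97.2 CPM in KO and 116 CPM in het members. The recombinase gene Dmc1 had 67.2 and 55.6 CPM in KO and het members. Prdm9, which places recombination sites, had 11.2 and 16.6 CPM, and Meiob, a single-strand DNA binding protein of recombination, 6.996 and 3.55 CPM, against 227 and 424 CPM in barcodes led by set B.

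Genes the rule did not use included known spermatogonial genes in both libraries. Dazl, a germ cell RNA-binding protein, had 835 CPM in KO and 735 CPM in het members, against 79.4 and 46.3 CPM in all other barcodes. At least 1 UMI of Dazl was seen in 324 of 360 KO and 129 of 146 het members. Barcodes led by set B had more of it, 1021 CPM in the KO and 823 CPM in the het library. Dazl therefore did not set members apart from that stage. Of 4140 genes at 50 CPM or more in members of both libraries, 1878 (45.4%) stood 2-fold or more above all other barcodes of both libraries and 576 (13.9%) stood 2-fold or more below. The 20 genes with the highest ratio, taken as the lower of both libraries and leaving out the rule's genes, fall into a few recognisable kinds. Pou3f1, a POU factor of GDNF-dependent progenitors, had 51.1 CPM in KO and 57.998 CPM in het members, against 0.593 and 0.399 CPM elsewhere. Trim71, an RNA-binding ubiquitin ligase of early and germ line cells, had 55.3 and 61.5 CPM in KO and het members, against 0.658 and 0.327 CPM elsewhere.

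Cell division genes formed a second kind among these 20. Cenpa, the centromeric histone H3 variant, had 214 CPM in KO and 173 CPM in het members, against 3.30 and 0.897 CPM elsewhere. Mcm2, a subunit of the replicative helicase, had 87.5 and 74.6 CPM in KO and het members. Ccna2, the S and G2 phase cyclin, had 134 and 97.1 CPM, E2f3, an E2F factor of the cell cycle, 76.3 and 92.3 CPM, and Cdca7, a partner of the chromatin remodeller HELLS, 82.6 and 95.9 CPM. Tet3, a 5-methylcytosine oxidase, had 116 CPM in KO and 105 CPM in het members. Others among them were Hnf4aos, Klf8, Galnt12, Smagp, Lmo1, P3h3, Bahcc1, Gcat, Hist1h2ap, Shroom4 and Clstn2. None (0) of the 15 of these 20 genes found in the promoter table held CACGTG in the 250 bases before its start.

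The lists of related genes were read in members over all other barcodes, first those of mitotic germ cells. Of the 26 genes of the undifferentiated spermatogonia list, only 5 reached 50 CPM in members of both libraries. All 5 of these were at least 2-fold higher in members. Of the 11 genes of the differentiating list 7 reached that level and 6 were 2-fold higher, where 45.4% of all genes at that level were. Genes entered these and the later list counts through their level in members. The counts therefore describe the lists and do not support the label. Lin28a, an RNA-binding protein of progenitors, had 48.3 CPM in KO and 53.3 CPM in het members, against 1.06 and 0.228 CPM elsewhere. Ccnd1, cyclin D1, had 176 and 183 CPM in KO and het members, and Dnmt3b, a DNA methyltransferase of differentiating spermatogonia, 65.1 and 60.4 CPM. Of the G1/S list 10 of 13 genes and of the G2/M list 10 of 17 were at least 2-fold higher. Of the DNA methylation and chromatin list 13 of 18 were.

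The meiotic and spermatid lists had smaller shares of such genes than the 45.4% of all genes. Of the early meiotic list 3 of 13 genes were at least 2-fold higher in members than elsewhere. The piRNA list, with 5 of 12, was near the share of all genes. Sycp1, a synaptonemal complex protein, had 570 CPM in KO and 623 CPM in het members, and 1734 and 2421 CPM in barcodes led by set B. All 12 mitochondrially encoded mRNAs with enough counts were at least 2-fold higher in members than elsewhere, as were 48 of 81 ribosomal protein genes. The mitochondrial level was not particular to members. For mt-Cytb, barcodes led by set B had 3782 CPM in the KO and 2995 CPM in the het library, beside 3427 and 2647 CPM in members. Of the 15 spermatid mRNAs, 12 were at least 2-fold lower.

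Id4, often used as a stem cell mark, did not single out members at this depth. It was at 15.4 CPM in KO members (22 UMIs in 20 of 360) and 10.7 CPM in het members (9 UMIs in 7 of 146), below the 36.1 and 32.3 CPM of all other barcodes and the 45.9 and 63.95 CPM of barcodes led by set B. Ret, the co-receptor of GFRA1, had 4 UMIs in KO and 12 UMIs in het members. Etv5, a GDNF target, had 5 UMIs in KO and 10 in het members. These counts are too low to compare the libraries.

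X-linked genes took a larger share of summed UMIs in members than in later classes, but not of the UMIs of a typical barcode led by set B. As background, X-linked genes are silenced in pachytene and stay largely silent after it, while mouse spermatogonia transcribe many of them. X-linked genes gave 1.73% of UMIs in KO members and 1.77% in het members, 1.42% and 1.29% in barcodes led by set B, and 0.971% and 0.907% in the barcodes outside these and the Sertoli-marked classes. Per barcode, the median X share was 1.69% in KO and 1.73% in het members, 1.71% and 1.74% in barcodes led by set B, and 1.08% and 1.01% in those outside. Of the list of spermatogonia-enriched X-linked and testis germ cell genes, 8 of 11 with enough counts were at least 2-fold higher in members than elsewhere. Usp26, an X-linked deubiquitinase, had 243 CPM in KO and 270 CPM in het members, against 15.1 and 15.8 CPM elsewhere. Taf7l, an X-linked TFIID subunit, had 258 and 317 CPM, and Nxf2, an X-linked RNA export factor, 147 CPM in both. The level of Taf7l was not particular to members, since barcodes led by set B had 280 CPM in the KO and 314 CPM in the het library.

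Members were not free of signal from other cells. Markers of elongating spermatids summed to 12854 CPM in KO and 17784 CPM in het members, against 39450 and 70169 CPM in all other barcodes. Every member of either library held at least 3 UMIs of these markers. Prm1, the other protamine gene, gave 22.4 UMIs per KO member and 43.3 per het member. Prm2, the targeted gene, had 4 UMIs in 4 of 360 KO members (2.80 CPM) and 2684 UMIs in 146 of 146 het members (3177 CPM), while all other barcodes stood at 6.54 and 12381 CPM. The targeted gene was thus near absent from the KO library, as its label says, while the het library held it in every member.

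Pachytene markers and somatic markers differed between the libraries. The 7 markers of pachytene to secondary spermatocytes summed to 2794 CPM in KO and 1735 CPM in het members, against 8298 and 7044 CPM in all other barcodes. They exceeded the set A UMIs in 229 of 360 KO and 57 of 146 het members. Scrublet marked 38 KO members (10.6%) and 4 het members (2.74%), and without them the same markers summed to 2500 and 1629 CPM. The 8 Sertoli markers summed to 99.3 CPM in KO members, with Amh at 0, and 48.5 CPM in het members, with Sox9, Amh, Cldn11 and Rhox5 at 0. The 5 myoid markers summed to 92.4 CPM in KO members and 2.37 CPM in het members, where Acta2, Tagln and Des were at 0. That KO sum lay in few barcodes, since 4 of 360 members held 3 or more UMIs. The 6 Leydig markers summed to 57.4 CPM in KO and 119.5 CPM in het members. The 4 mast cell markers were at 0 in members of both libraries.

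Kit and Gfra1, genes of the rule, were each read in a minority of members. A Kit UMI was seen in 111 of 360 KO members (30.8%, 26.1 to 35.9%) and 53 of 146 het members (36.3%, 28.5 to 44.7%). A Gfra1 UMI was seen in 22 KO members (6.11%, 3.87 to 9.11%) and 12 het members (8.22%, 4.32 to 13.9%). Both together were seen in 6 KO members and 1 het member, so 27.3% of the KO and 8.33% of the het members with Gfra1 also had Kit, beside the shares of 30.8% and 36.3% among all members. After thinning every barcode to 2000 UMIs, which left out 37 KO and 12 het members, Kit was seen in 17.0% of KO and 16.4% of het members and Gfra1 in 2.79% and 5.22%. The thinned Kit share of barcodes with the Sertoli genes was 2.05% in the KO and 2.83% in the het library. For Gfra1 it was 1.40% and 0.530%. This class was not made up of Sertoli signal alone. Its Leydig marker sums (KO 1182, het 4824 CPM) exceeded its Sertoli marker sums (KO 527, het 965 CPM). Its Kit level (KO 8.68, het 14.8 CPM) exceeded that of barcodes outside the members, set B and Sertoli-marked classes (KO 3.16, het 1.81 CPM). Its Kit shares are therefore not a background level. Without thinning, Gfra1 was seen in 5.74% of the Sertoli-marked barcodes in the KO library (median 4417 UMIs) and 1.31% in the het library (median 1410 UMIs). Without thinning, the Gfra1 share of KO members (6.11%) was thus close to that of these deeper barcodes. After thinning it was higher, with overlapping intervals (1.28 to 5.22% in KO members and 1.01 to 1.90% in the Sertoli-marked barcodes). In CPM, Gfra1 was at 25.9 in KO members and 9.53 in the Sertoli-marked barcodes of that library.

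Because Gfra1 was so sparse, members with a Gfra1 or Zbtb16 UMI and no Kit UMI (68 KO and 32 het) were set beside members with a Kit UMI and neither of these (82 KO and 33 het). This split and the genes shown for it were chosen after values had been seen. Glis3, a Krüppel-like zinc finger factor of progenitors, was higher in the first subset. In the KO library Glis3 had 292 CPM in the Gfra1 or Zbtb16 members and 2.81 CPM in the Kit members. In the het library the values were 369 and 5.39 CPM. A further 38 of its 128 UMIs in KO members and 5 of 79 in het members lay outside both subsets, and the 10 highest members held 46.9% and 83.5% of its UMIs. Egr4, a GDNF-responsive factor, had 88.5 CPM in the Gfra1 or Zbtb16 members and 5.62 CPM in the Kit members of the KO library, and 101 and 5.39 CPM in those of the het library. Ccnd2, cyclin D2, had 95.01 and 30.9 CPM in the KO library and 121 and 32.4 CPM in the het library, in the same order.

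Several genes of later spermatogonia were higher in the Kit members, but not all genes of the differentiating list were. Prss50, a serine protease gene that was at 253 and 305 CPM in the barcodes led by set B, had 13.1 CPM in the Gfra1 or Zbtb16 members and 70.3 CPM in the Kit members of the KO library. In the het library it had 10.1 and 86.3 CPM. Esx1, an X-linked homeobox gene, had 65.5 and 132 CPM in the KO library and 25.3 and 113 CPM in the het library. Mki67, the proliferation marker, had 151 and 267 CPM in the KO library and 177 and 383 CPM in the het library. Dazl had 747 and 913 CPM in the KO library and 546 and 879 CPM in the het library. Stra8 did not keep its order, with 102 and 228 CPM in the KO library and 233 and 199.5 CPM in the het library. Sox4, of the differentiating list, went the other way, with 85.2 and 36.5 CPM in the KO library and 116 and 43.1 CPM in the het library. The differentiating list summed to 786 CPM (690 to 892) and 908 CPM (811 to 1012) in the KO library. In the het library it summed to 677 CPM (568 to 802) and 863 CPM (734 to 1007). These intervals overlapped in both libraries.

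The summed undifferentiated list was higher in the Gfra1 or Zbtb16 members, but progenitor genes did not all go that way. Lin28a had 36.0 CPM in the Gfra1 or Zbtb16 members and 73.1 CPM in the Kit members of the KO library. In the het library it had 45.5 and 64.7 CPM. Epcam had 141 and 208 CPM in the KO library and 75.8 and 156 CPM in the het library. The undifferentiated list, from which Gfra1 and Zbtb16 were left out, summed to 1084 CPM in the Gfra1 or Zbtb16 members (971 to 1208) and 587 CPM in the Kit members (510 to 673) of the KO library. In the het library it summed to 1102 CPM (961 to 1259) and 604 CPM (497 to 727). Glis3 carried a good part of that. Without it the sums were 793 CPM (696 to 899) and 585 CPM (508 to 670) in the KO library. In the het library they were 733 CPM (619 to 863) and 598 CPM (492 to 721), with overlapping intervals. The G2/M list summed to 3381 and 4426 CPM in the KO library and 3129 and 4880 CPM in the het library. The spermatid mRNAs were also unequal, at 26514 and 16705 CPM in the KO library and 22471 and 14822 CPM in the het library, and the part of this in the split was not tested.

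**Figure D3:**
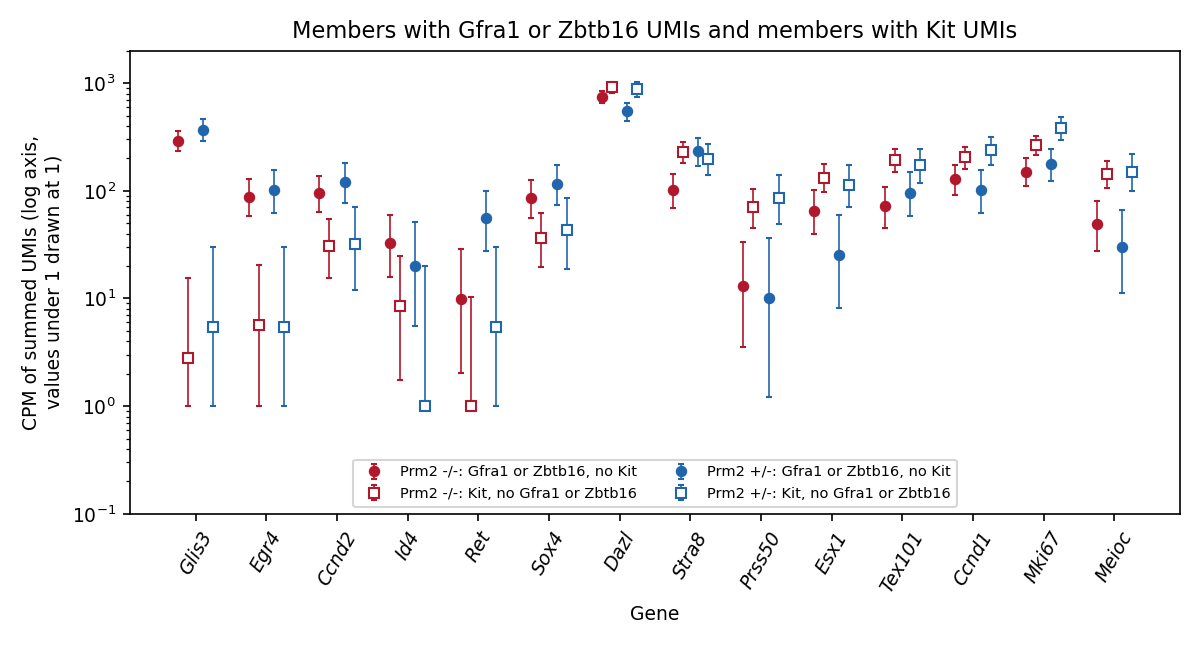
CPM of summed UMIs (log axis, values under 1 drawn at 1) of 14 genes in members with Gfra1 or Zbtb16 and no Kit (filled circles) and members with Kit and neither (open squares), KO in red and het in blue; bars are exact Poisson 95% intervals. Glis3 and Egr4 stand far higher in the circles of both libraries, and Sox4 also stands higher there, while Prss50, Esx1, Mki67 and Meioc stand higher in the squares.

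Between the genotypes, most genes of the members stood close together. Of 5024 genes with at least 50 CPM in 1 library and 100 UMIs over both, 110 (2.19%) stood 2-fold or more higher in KO members and 22 (0.438%) stood 2-fold or more lower, which is 2.63% in either direction, and the median log2 ratio of KO over het was 0.03. The compared genes at least 2-fold above all other barcodes in both libraries were 2197 with a median of -0.11, of which 8 were past that size upwards and 10 downwards. Of the 110 higher genes, 91 (82.7%) were less abundant in members than in all other barcodes of both libraries, as were 30.9% of all genes compared. Of the 22 lower genes 1 was. Leaving out the members marked by Scrublet, 74 genes were at least 2-fold higher and 47 of these were less abundant in members. The pachytene markers, at 2794 CPM in KO and 1735 CPM in het members, moved with these genes, and their part in the result was not tested.

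**Figure D4:**
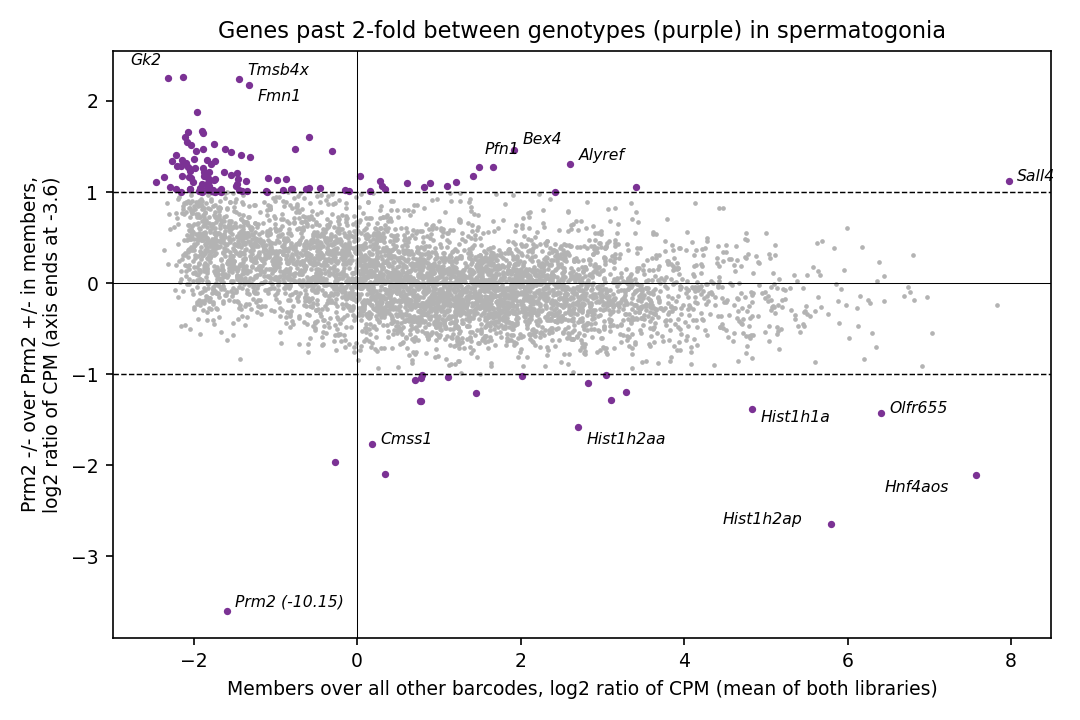
Log2 ratio of KO over het CPM in members (vertical axis, ending at -3.6) against the log2 ratio of members over all other barcodes (horizontal axis, mean of both libraries); each point is 1 of the genes compared that had UMIs in members of both libraries, purple where the difference between genotypes is at least 2-fold, and dashed lines mark that size. The higher genes cluster on the left, among genes less abundant in members than elsewhere, and Prm2 is drawn at the lower edge.

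The 10 highest ratios belonged to such genes. Gk2, a testis glycerol kinase, had 136 CPM in KO and 28.4 CPM in het members (log2 ratio 2.26, 1.64 to 2.93), and 425 and 225 CPM in all other barcodes. Tmsb4x, which encodes thymosin beta 4, an actin-binding peptide, had 118 and 24.9 CPM in KO and het members (2.24), and Fmn1, an actin-assembly factor of the formin family, 64.4 and 14.2 CPM (2.18). Fmn1 was also 2.01 higher on the log2 scale in all other barcodes. Pdha2, the testis pyruvate dehydrogenase subunit, had 65.8 CPM in KO and 22.5 CPM in het members (1.55). Pabpc6, Art3, Tmem107, Pdzd9, Fam227b and Slco6c1 had log2 ratios between 1.52 and 1.67. All 10 were less abundant in members than elsewhere in both libraries.

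Among the genes more abundant in members, those at least 2-fold higher in the KO library mostly followed the library as a whole. The 8 were Bex4, Alyref, Pfn1, Tia1, BC004004, Sall4, Ebpl and Lsm8, named because they were few and after their values were seen. Of these, Sall4 is a gene of the rule. Alyref, an mRNA export adaptor, had 288 CPM in KO and 116 CPM in het members (log2 ratio 1.31, 0.99 to 1.64), and a ratio of 1.82 in all other barcodes. Pfn1, the actin-binding profilin 1, had 365 and 150.3 CPM in KO and het members (1.28), and a ratio of 1.51 elsewhere. Bex4, an X-linked gene of the brain-expressed family, had 84.7 and 30.8 CPM (1.46), and a ratio of 1.42 elsewhere. Of all 110 higher genes, 107 had the same sign in the other barcodes, as had 63.1% of all genes compared, and 16 were past 2-fold there with that sign, as were 84 of the 5024.

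The lowest ratio was that of Prm2 itself (-10.15). Cmss1 was lower throughout the KO library, with 290 CPM in KO and 985 CPM in het members (-1.77) and a ratio of -1.80 in all other barcodes. Gramd1b, Hnf4aos and Olfr655 lay in few cells. Hnf4aos, an antisense transcript of Hnf4a, had 106 CPM in KO members and 455 CPM in het members (-2.11), but was read in 46 of 360 KO and 32 of 146 het members, and the 10 highest members held 55.6% and 60.9% of its UMIs. All other barcodes stood at 1.33 CPM in the KO and 0.996 CPM in the het library. These low levels over many barcodes came to 162 UMIs in the KO and 70 in the het library, so that members held 48.2% and 84.6% of the Hnf4aos UMIs. Whether its reads can be told from those of the overlapping Hnf4a gene was not tested.

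Olfr655, an olfactory receptor gene, was read in 22 KO and 11 het members, with 82.1% and 99.1% of its UMIs in the 10 highest, so its ratio of -1.42 rests on a handful of cells and turned to 0.71 among members with set A of at least 0.16% of UMIs. Hnf4aos and Olfr655 were found together in 6 KO and 2 het members. Gramd1b had 90.5% of its het UMIs in 10 members. Wdr89, a WD-repeat gene, was spread more evenly, with 28.7 CPM in KO members (39 of 360) and 69.8 CPM in het members (43 of 146), a log2 ratio of -1.28 (-1.90 to -0.68).

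Clustered histone genes were lower in KO members as a family. The family was taken by gene name. Most of it is replication-dependent histones, transcribed in S phase, and most mRNAs of these end without the poly(A) tail by which the kit captures RNA. It also holds testis variants, namely Hist1h2aa, Hist1h2ba and Hist1h1t. The family (67 genes) was defined after 3 of its members appeared among the 10 lowest. Hist1h2ap had 136 CPM in KO members (194 UMIs in 109 of 360) and 849 CPM in het members (717 UMIs in 98 of 146), a log2 ratio of -2.64 (-2.88 to -2.41). Hist1h1a, a linker histone gene, had 101 and 263 CPM in KO and het members (-1.38), and Hist1h2aa, a testis H2A gene, 56.7 and 169 CPM (-1.58). Summed, the family gave 554 CPM in KO and 1987 CPM in het members, a log2 ratio of -1.84 (-1.97 to -1.72), and -1.44 without Hist1h2ap. Of the 19 genes with at least 20 UMIs over both libraries, 17 were lower in KO members and 15 at least 2-fold lower. Of all 11182 genes with that many UMIs, 45.6% were lower and 2.41% at least 2-fold lower. Several of the 19, such as Hist1h2ab with 5 UMIs in KO and 25 in het members, reached the limit through the het library, where they are high, so these counts describe the family and do not support its direction. A UMI of the family was seen in 245 of 360 KO members and 126 of 146 het members, with medians of 1 and 5 UMIs per member.

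The histone difference extended to the next stage. Barcodes led by set B had 817 CPM of the family in the KO and 2436 CPM in the het library (-1.58). All barcodes outside the members together, those led by set B included, had 296 and 336 CPM (-0.19). A good part of the set B sums came from the testis variants. Hist1h2aa gave 180 CPM in the KO and 592 CPM in the het library, Hist1h2ba 84.3 and 270 CPM, and Hist1h1t 27.4 and 110 CPM. Many of these genes are near-identical copies, so the value of a single gene is uncertain where reads could be shared. The G1/S list had a median on the other side of 0, as had all 5024 genes compared (0.03, with 2684 above 0 and 2340 below). Of the 14 G1/S genes compared, 10 were above 0 and 4 below, with a median log2 ratio of 0.15, Pcna, the replication clamp, at 0.61 (144 CPM in KO and 94.7 CPM in het members) and Rrm1, a ribonucleotide reductase subunit, at -0.59 (83.96 and 127 CPM).

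**Figure D5:**
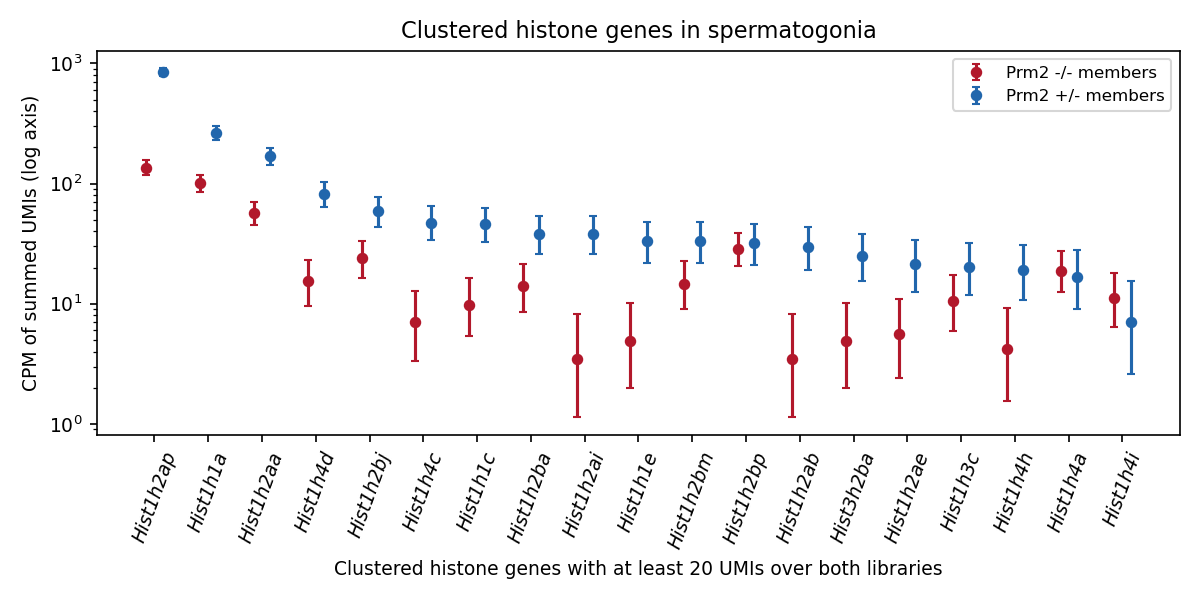
CPM of summed UMIs (log axis) of the 19 clustered histone genes with at least 20 UMIs over both libraries, KO members (red) left of het members (blue), ordered by the het level; bars are exact Poisson 95% intervals. All but Hist1h4a and Hist1h4i are lower in KO members, and Hist1h2ap shows 136 and 849 CPM.

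The lists of spermatogonial genes stood near 0 between the genotypes. Of all 5024 genes compared, 2684 were above 0 and 2340 below, and the counts of each list are given beside that split. The undifferentiated list had 2 genes above and 4 below among 6 compared (median log2 ratio -0.10), with Foxo1, a stem cell factor, at -0.38 and Epcam, an adhesion protein, at 0.20. The differentiating list had 5 above and 2 below among 7 (0.11), led by Esx1, at 133 CPM in KO and 81.7 CPM in het members (0.70), and Dmrtb1, a DM-domain factor of meiotic entry, at 260 and 163 CPM (0.67). The X-linked and testis list had 6 above and 5 below among 11 (0.00). No (0) gene of these 3 lists was past 2-fold, where 2.63% of all genes were. Sox3, an X-linked progenitor factor, missed the count limit with 65 UMIs in 57 KO members and 16 UMIs in 14 het members.

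The early meiotic, G2/M and piRNA lists each held 1 gene past 2-fold, where 2.63% of all genes compared were. The early meiotic list had 11 above and 5 below among 16 (median 0.11), with Tex12, a synaptonemal complex component, at 69.3 CPM in KO and 33.1 CPM in het members (1.06). Syce2 and Sycp2, components of the same complex, were at 0.74 and 0.71, and Zcwpw1, a reader of PRDM9 marks, at -0.62. The G2/M list had 11 above and 7 below among 18 (0.08), with Cdk1, the mitotic kinase, at 106 and 50.9 CPM in KO and het members (1.05) and Mki67 at 205 and 292 CPM (-0.51). The piRNA list had 8 above and 5 below among 13 (0.08), with Gtsf1, a piRNA pathway protein, at 399 and 172 CPM (1.22), Dnd1, a germ cell RNA-binding protein, at 0.88, and the helicase gene Mov10l1 at -0.59. Gtsf1 was more abundant outside the members, at 1257 and 735 CPM in the KO and het libraries. Tex12 was more abundant in barcodes led by set B, at 233 and 145 CPM. In all other barcodes the log2 ratios of Tex12, Cdk1 and Gtsf1 were 0.74, 0.65 and 0.77.

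Signalling, chromatin and stress lists showed small shifts, beside 2684 genes above 0 and 2340 below among all 5024 compared. All 6 compared genes of the GDNF, FGF and KIT list were below 0 (median -0.36), led by the growth kinase gene Mtor at -0.68, Map2k1 at -0.40, Foxo1 at -0.38 and Fgfr2 at -0.35, but the median turned to 0.069 when members were thinned to 2000 UMIs. The DNA methylation and chromatin list had 10 above and 8 below among 18 (0.02), with the maintenance methyltransferase gene Dnmt1 at -0.51, the histone demethylase gene Kdm1a at -0.45, the deacetylase gene Hdac2 at 0.47 and the Polycomb methyltransferase gene Ezh2 at 0.51. Ezh2 turned to -0.18 when thinned. The apoptosis and p53 list had 6 above and 1 below among 7 (0.24), with the mitochondrial caspase activator gene Diablo at 190 CPM in KO and 101 CPM in het members (0.91) and Bax at 0.24. No (0) gene of the retinoic acid list had enough counts. Of the dissociation list, which marks stress during cell isolation, 2 genes were compared, Jund at 0.41 and Klf4 at 0.24.

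Ribosomal protein genes were lower in KO members as a list. Of 82 compared, 71 were below 0 and 11 above, where 2340 of all 5024 genes compared were below and 2684 above. The ribosomal protein genes had a median of -0.42, against -0.28 for the same genes in all other barcodes. Their sum was 92543 CPM in KO and 121129 CPM in het members, and 41740 and 51981 CPM elsewhere. Rps15, of the small subunit, had 744 CPM in KO and 1378 CPM in het members (-0.89), and Rpl8, of the large subunit, 1198 and 2171 CPM (-0.86). The mitochondrially encoded list stood at 0.03, with mt-Cytb at 0.37 and mt-Nd5 at -0.37, and the 3 Y-linked genes compared at -0.12, with Eif2s3y at -0.28 and Uba1y at 0.17. The 15 spermatid mRNAs had 11 above and 4 below (median 0.22), with Meig1 at 0.63 and Prm1 at -0.41, where the same genes stood at -0.34 in all other barcodes.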

How the data were processed

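Whole testis was dissociated with collagenase and Accutase and run on the 10x Genomics 3' v3.1 kit, 1 library per genotype, per the labels' protocols. The authors deposited UMI counts per gene (32285 Ensembl IDs) and barcode. Per the file headers, Cell Ranger 7.1.0 wrote them, while mm10 and Seurat 4.1.0 are named in the submitters' processing notes. Barcodes had at least 500 UMIs as deposited. No columns of other samples were present (0).

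The members and gene lists were chosen with earlier results of these data known. UMIs were summed over members and scaled to CPM, with no length scaling. Genes with at least 50 CPM in 1 library and 100 UMIs over both were compared, and a log2 ratio of 1 counted as 2-fold. Intervals (95%) are exact Clopper-Pearson for shares, exact Poisson for sums and exact conditional binomial for ratios. They cover counting error only. The genes named are sets A and B, Prm2, the 10 highest and 10 lowest ratios without clone-based or predicted names, up to 4 genes of each of 16 lists by absolute ratio, and the 20 genes highest in members over other barcodes; other genes of the lists, and those said to be, were named after their values were seen. A few genes picked by this rule are left unreported here. No barcode was removed as a doublet; Scrublet (scanpy 1.11.5) marks, at an expected 0.8% per 1000 barcodes, served as an alternative. Chromosomes were looked up in GENCODE M21 (mm10), which held 32235 of the IDs. Scripts were tested on simulated data. Python 3.11.15, scipy 1.17.1 and edgeR 4.0.16 (TMM only) were used.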

Additional observations from a re-analysis of the deposited data

How the results depend on the processing

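The ratio of member shares stayed above 1 under all 15 alternatives, between 1.34 with set A of at least 5 UMIs and 1.74 without Scrublet marks. The count of genes at least 2-fold higher in KO members was 110, and 56 with members thinned to 2000 UMIs, 24 with set A of at least 0.16% of UMIs and 45 with a 100 CPM minimum; the count of lower genes was 22, and 11 at 0.16%. Fewer genes or members enter each of these. Of the 24 higher genes at 0.16%, 16 were among the 110, and of the 56 when thinned, 20. Kit was seen in 30.8% of KO and 36.3% of het members, in 17.0% and 16.4% when thinned, and in 40.0% of KO members at 0.16%; Gfra1 was seen in 2.79% of KO members when thinned, against 6.11%. Thinning removes UMIs by construction. Signs turned for the GDNF, FGF and KIT list (median 0.069) and Ezh2 (-0.18) when thinned, and for Cdc20 (-0.023) and Olfr655 (0.71) at 0.16%; the cause was not tested. For named genes, 404 values stayed inside the counting interval of the main value. Another 43 left it, or fell under 2-fold where the main ratio was at least 2-fold. A turned sign was counted only where the main interval left out 0. The summed histone ratio ran from -2.07 at 0.16% to -1.83 without Scrublet marks, in alternatives chosen after seeing the data. TMM factors were 1.01 for KO and 0.994 for het sums. No paired analysis was possible because each genotype has 1 library and no replicate could be left out.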
